A study of Mus musculus with 7 samples.

Results

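The T-cell lineage proteins CD3e, CD4, CD8a and FOXP3 are 4 of the 25 target proteins in a panel of 31 antibody probes that was read around vascular amyloid in mouse brain. They were taken by name from the counts deposited without normalization. Each value is the log2 ratio of a protein's count in a region to the geometric mean of the 3 negative-control antibodies of the same region (Rt IgG2a, Rt IgG2b and Rb IgG), which measure non-specific binding. A value of 0 is therefore the level of non-specific antibody, and a value of 1 is 2 times that level.

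CD3e is a chain of the CD3 complex, which relays the signal of the T-cell receptor and is carried by mature T cells as a class. CD4 is the co-receptor of helper T cells, which see antigen on MHC class II, CD8a is a chain of the co-receptor of cytotoxic T cells, which see antigen on MHC class I, and FOXP3 is the transcription factor that defines regulatory T cells. In the healthy brain T cells are scarce in the tissue itself and are found mainly in the meninges and around vessels, where macrophages and dendritic cells can present antigen to them. Some myeloid cells of the mouse can also carry CD4 or CD8a, so neither protein belongs to T cells alone.

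The GeoMx digital spatial profiler counts oligonucleotide tags that ultraviolet light releases from bound antibodies within a chosen region of a fixed section. Brain sections came from 7 PDAPP mice, an inbred line that expresses mutant human amyloid precursor protein and deposits amyloid in plaques and in vessel walls. From 23 months of age and for 3 months, 3 mice received control IgG (IgG2a isotype, 50 mg/kg, 2 injections per week) and 4 mice received the anti-Aβ antibody 3D6 (IgG2b, 25 mg/kg, 1 injection per week), so the arms differed in isotype, dose and schedule as well as in the target of the antibody. All 7 carried the transgene and vascular amyloid. The titles of the IgG mice call them untreated, but their source label gives IgG treatment, and there was no uninjected and no amyloid-free mouse, and the sex of each mouse is not given in the sources used here. Circular regions 100 μm across were placed on amyloid-laden vessels seen by staining for amyloid and laminin, in every mouse 12 leptomeningeal and 12 on penetrating vessels, and 166 of these 168 regions have values (34 leptomeningeal and 36 penetrating regions of IgG mice, 48 and 48 of 3D6 mice).

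The mouse was the replicate (n = 3 IgG and n = 4 3D6), and regions were averaged per mouse and site. Totals over the 31 probes ran from 2571 to 254884 counts per region and nuclei from 6 to 143, and 43 of 166 regions carried the warning for few nuclei. IgG mouse 37 stood apart from the rest. All 10 of its leptomeningeal regions carried that warning, and its negative controls exceeded 10 times the site median in 5 of 12 penetrating regions and in 1 leptomeningeal region, which happened in none of the other 6 mice. The readout dates split the mice into 3 runs (run 1 with IgG mouse 49 and 3D6 mice 83 and 81, run 2 with IgG mouse 37 and 3D6 mouse 77, run 3 with IgG mouse 29 and 3D6 mouse 72). The leukocyte protein CD45 was higher in the leptomeninges of 3D6 mice by 2.46 on the log2 scale (SE 0.36, limma adjusted p = 0.000959), and by 0.97 on penetrating vessels (SE 0.28, adjusted p = 0.180). The part of this leukocyte difference in the values of the T-cell proteins was not tested. Because each region pools its cells, fewer cells of a type and less protein per cell cannot be told apart.

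CD3e was the most abundant of the 4 proteins over its background. Its count had a median of 32.7 per region (range 5.88 to 2389), it exceeded 2 times the negative controls in 92 of 166 regions (55.4%) and the highest of the 3 negative controls in 114, and only 3 regions lay under 10 counts. In the leptomeninges the mouse means of its log2 ratio were 0.61, 0.73 and 0.96 in IgG mice 49, 37 and 29, and 0.77, 0.92, 1.05 and 1.15 in 3D6 mice 81, 77, 83 and 72. On penetrating vessels they were 0.98, 1.37 and 1.50 in IgG mice 37, 49 and 29, and 1.06, 1.16, 1.68 and 1.68 in 3D6 mice 81, 83, 77 and 72. Every mouse mean was above 0 at both sites, and the groups overlapped at both. Over the 7 mice the level was 0.88 ± 0.19 (SD) in the leptomeninges and 1.35 ± 0.29 on penetrating vessels, or 1.85 and 2.55 times the negative controls.

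CD8a lay close to the negative controls. Its count had a median of 16.9 per region (range 4.06 to 1080), and it exceeded 2 times the negative controls in 19 of 166 regions (11.4%) and the highest negative control in 26. The leptomeningeal mouse means were 0.04, 0.11 and 0.59 in IgG mice 37, 49 and 29, and 0.14, 0.32, 0.45 and 0.48 in 3D6 mice 81, 77, 83 and 72. On penetrating vessels they were -0.20, 0.03 and 0.30 in IgG mice 37, 29 and 49, and 0.01, 0.18, 0.35 and 0.62 in 3D6 mice 72, 83, 81 and 77. Of these 14 means only that of IgG mouse 37 on penetrating vessels was below 0, and none reached 1. The level over the 7 mice was 0.30 ± 0.21 (SD) in the leptomeninges and 0.18 ± 0.27 on penetrating vessels.

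CD4 and FOXP3 lay below the negative controls. CD4 had a median of 5.45 counts per region (range 0.84 to 2424) and FOXP3 of 6.59 (range 1.06 to 1797), and 125 and 126 of 166 regions (75.3% and 75.9%) held under 10 counts. In 19 regions CD4, and in 16 regions FOXP3, held no more than about 1 tag, taken as under 1.5 counts once the positive-control factor was divided out, which no region did for CD3e or CD8a. CD4 exceeded 2 times the negative controls in 4 regions (2.41%) and FOXP3 in 1 (0.602%), and they exceeded the highest negative control in 10 and 2 regions. The largest counts of all 4 proteins came from IgG mouse 37, in whose regions of high background the geometric mean of the negative controls also reached 1429.

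For CD4, the leptomeningeal mouse means were -2.73, -2.70 and -0.66 in IgG mice 29, 49 and 37, and -1.78, -0.92, -0.68 and -0.08 in 3D6 mice 81, 72, 77 and 83. On penetrating vessels they were -2.36, -2.15 and -0.13 in IgG mice 49, 29 and 37, and -1.82, -1.64, -1.24 and -0.09 in 3D6 mice 72, 83, 81 and 77. IgG mice 29 and 49 had the lowest means at both sites, while IgG mouse 37 lay among the 3D6 mice. For FOXP3, the leptomeningeal means were -2.61, -1.95 and -0.71 in IgG mice 49, 29 and 37, and -1.74, -1.34, -1.0 and -0.65 in 3D6 mice 81, 72, 83 and 77. On penetrating vessels they were -1.21, -0.97 and -0.13 in IgG mice 29, 49 and 37, and -1.69, -1.11, -0.77 and -0.24 in 3D6 mice 81, 83, 72 and 77. None of the 28 means of these proteins reached 0. On penetrating vessels mice 37 and 77, the 2 mice of run 2 and 1 of each treatment group, had the highest means of both CD4 and FOXP3. In the leptomeninges they also had the highest means of FOXP3, and for CD4 only 3D6 mouse 83 was above them. The part of the run in these levels was not tested.

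**Figure D1:**
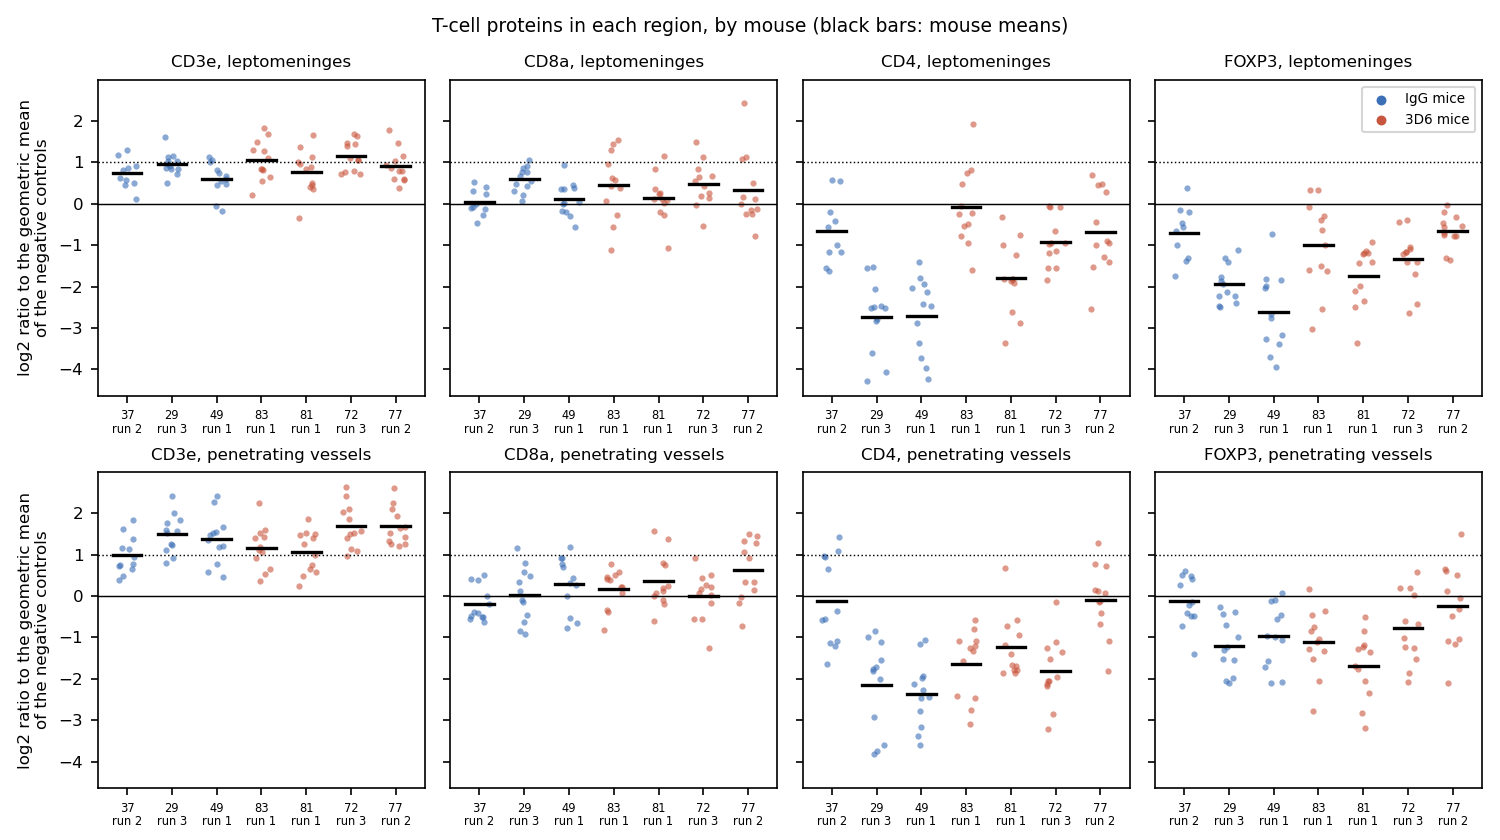
Log2 ratio of CD3e, CD8a, CD4 and FOXP3 to the negative controls (geometric mean of 3, y axis) in every region, by mouse and run (x axis) and site (rows). Points are regions, black bars are mouse means, the solid line is the level of the negative controls and the dotted line is 2 times that level. All mouse means of CD3e lie above the solid line and all of CD4 and FOXP3 lie below it, and CD4 of IgG mouse 37 lies apart from the other 2 IgG mice.

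Among the 25 targets, ordered from the highest level, CD3e took place 16 in the leptomeninges and 12 on penetrating vessels, CD8a 17 and 18, CD4 23 and 25, and FOXP3 24 and 22. These places describe counts over background and not amounts of protein, because antibodies differ in how well they bind. In the leptomeninges the interval between CD4 and FOXP3 (-1.36 ± 1.05 and -1.43 ± 0.71, SD over 7 mice) was smaller than their spread between mice, whereas CD3e lay above CD8a in each of the 7 mice at both sites.

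The 3 negative controls were not interchangeable as a background, and whether a protein lay above or below background depended on which was used. Rt IgG2b lay 1.17 (leptomeninges) and 1.26 (penetrating vessels) below the geometric mean of the 3 on the log2 scale, while Rt IgG2a and Rb IgG lay above it. In the mean of 7 mice CD3e was above each of the 3 taken singly. The means were 0.32 against Rt IgG2a, 0.28 against Rb IgG and 2.05 against Rt IgG2b in the leptomeninges, and 0.57, 0.87 and 2.60 on penetrating vessels. The mouse means of CD3e exceeded all 3 in 7 of 7 mice on penetrating vessels. In the leptomeninges they exceeded Rt IgG2a in 6 of 7 mice and Rb IgG in 5 of 7. In the leptomeninges of IgG mice the mean level was 0.77 for CD3e and 0.78 for Rb IgG. CD3e exceeded Rt IgG2a in 62 of 82 leptomeningeal and 71 of 84 penetrating regions, and Rb IgG in 55 and 78. CD8a was above Rt IgG2b only, by 1.47 and 1.44 at the 2 sites, and below Rt IgG2a by 0.26 and 0.60 and below Rb IgG by 0.30 and 0.29 in the mean of 7 mice. CD4 and FOXP3 were 1.35 to 2.13 below Rt IgG2a and Rb IgG at both sites, with no mouse mean above either, and between -0.26 and 0.38 of Rt IgG2b on the log2 scale. The species and isotype of each target antibody are not given in the sources used here, so which negative control matches which protein cannot be said.

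**Figure D2:**
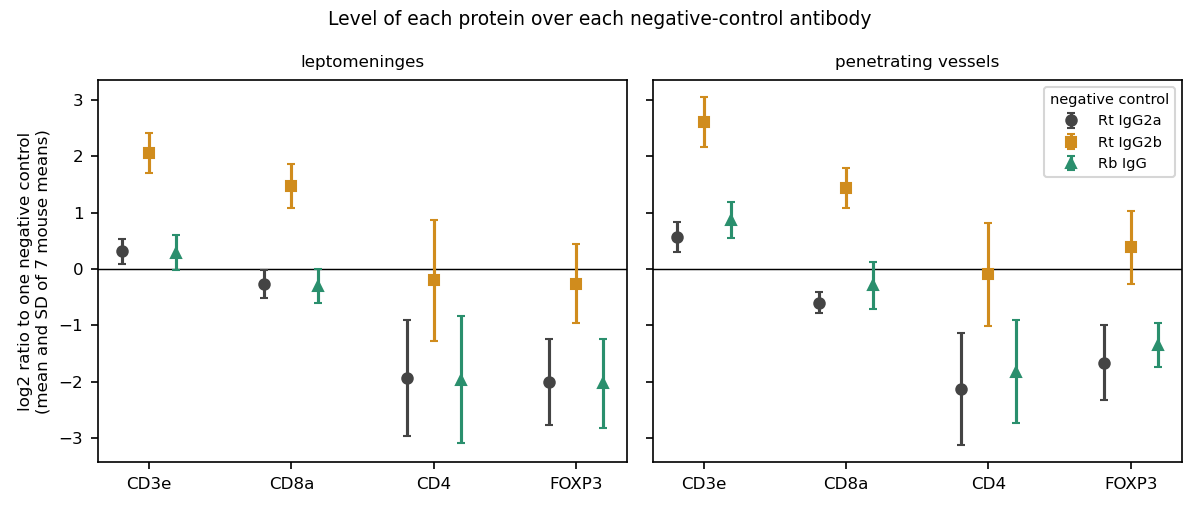
Mean log2 ratio of each T-cell protein to each negative-control antibody taken alone (y axis), for the leptomeninges and penetrating vessels. Points are means of 7 mouse means and bars are their SD. In these means CD3e lies above all 3 antibodies at both sites, CD8a above Rt IgG2b only, and CD4 and FOXP3 lie 1.35 to 2.13 below Rt IgG2a and Rb IgG. The SD of CD3e over Rb IgG in the leptomeninges (0.31) exceeds its mean (0.28).

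The spread between regions of the same mouse set how finely these levels could be read. The SD between regions of a mouse was 0.41 for CD3e and 0.59 for CD8a in the leptomeninges. Counting error of the protein's own count alone would give 0.27 and 0.35. For CD4 it was 0.87 against 0.69, and for FOXP3 0.74 against 0.67, so most of the spread of FOXP3 between regions was of the size of counting error. Between mice the picture differed. The SD of the mouse means was 1.05 for CD4 and 0.71 for FOXP3, but 0.19 for CD3e and 0.21 for CD8a in the leptomeninges. These counting values take each count as a number of independent tags, and cover counting error only.

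The first comparison asked whether T-cell proteins around vascular amyloid differed between 3D6 and IgG mice. In the leptomeninges none of the 4 passed the test (limma on mouse means, Benjamini-Hochberg adjustment over 25 targets, threshold 0.05), while 5 of 25 targets (20%) did, and none of the 4 had an unadjusted p under 0.05, as 40.0% of the targets did. CD3e was higher by 0.20 (SE 0.29, 95% interval -0.44 to 0.85, adjusted p = 0.594) and CD8a by 0.10 (SE 0.30, -0.56 to 0.77, adjusted p = 0.791). Both intervals exclude a rise of 1 on the log2 scale, that is of 2 times, on this scale of normalization. CD4 was higher by 1.16 (SE 0.57, 95% interval -0.09 to 2.42, adjusted p = 0.150), or 2.24 times with an interval of 0.94 to 5.35, and 3D6 mouse 83 alone exceeded all IgG mice. FOXP3 was higher by 0.57 (SE 0.47, -0.46 to 1.61, adjusted p = 0.341). An exact permutation test that enumerates the 35 ways to split the mice, and which cannot go below p = 0.0286, gave two-sided p = 0.200 for CD3e, 0.571 for CD8a, 0.200 for CD4 and 0.314 for FOXP3. The groups overlapped for each of the 4 proteins, and did not overlap for 24.0% of targets.

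The call on CD4 depended on the mice, regions and control used. Without IgG mouse 37 the difference in CD4 was 1.85 (limma adjusted p = 0.025), and without the regions of few nuclei it was 1.53 (limma adjusted p = 0.038). In the leptomeninges this filter removes all regions of mouse 37 and 9 of 12 regions of IgG mouse 49. With mouse 37 kept, CD4 was also called with all regions entered and the mouse as a random block (1.18, limma adjusted p = 0.045) and over Rb IgG alone (1.49, adjusted p = 0.049). Rb IgG was itself lower in the leptomeninges of 3D6 mice, by 0.94 (exact permutation p = 0.0286), and Rt IgG2a by 0.23. Over Rb IgG alone 11 of 25 targets were called. The random-block fit takes regions as observations, so its p rests on regions as well as mice. It uses 1 correlation between regions of a mouse (0.33) for all targets. For CD4 the SD between all mice (1.05) exceeded that between regions of a mouse (0.87). Leaving out IgG mouse 29 or 49 instead gave 0.81 and 0.83 (adjusted p = 0.408 and 0.370). Within runs 1 and 3 CD4 was higher in 3D6 by 1.77 and 1.81, and within run 2 the 2 mice were 0.02 apart, 3D6 below IgG. With the run as a block the difference was 1.24 (adjusted p = 0.125). FOXP3 had the same layout, with 1.24, 0.06 and 0.61 within runs 1, 2 and 3, and was not called without any 1 mouse, at 1.10 without mouse 37 (adjusted p = 0.077) and 0.15 without mouse 49 (adjusted p = 0.873). The within-run values of CD3e were 0.30, 0.18 and 0.19, and those of CD8a were 0.18, 0.28 and -0.11. Each run holds 1 IgG mouse, so these values have no error of their own.

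The sign of these differences depended on what the counts were divided by. The negative controls themselves were lower in 3D6 mice in the leptomeninges, by 0.61 on the log2 scale (exact permutation p = 0.057), and the median of the 25 treatment differences was 0.57. Without normalization that median was -0.04 and with the housekeepers (Histone H3, S6 and GAPDH) it was -0.27. CD3e then turned to -0.41 and -0.64, CD8a to -0.51 and -0.74, and FOXP3 to -0.04 and -0.27, whereas CD4 stayed above 0 at 0.55 and 0.32. Division by Rt IgG2a alone also gave values below 0 for CD3e and CD8a. Relative to the median of the 25 targets, which any common denominator leaves unchanged, CD3e stood 0.37 and CD8a 0.47 below, CD4 stood 0.59 above, and FOXP3 was itself the median target. Ordered by the size of the difference, CD4 was target 6 of 25, CD3e 17 and CD8a 19.

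On penetrating vessels none of the 4 proteins passed the limma test, nor had an unadjusted p under 0.05, and neither did any of the 25 targets (0%), of which 2 (8%) had an unadjusted p under 0.05 and 1 was called with all regions entered and the mouse as a block. The 3D6 minus IgG differences were 0.11 for CD3e (SE 0.29, 95% interval -0.55 to 0.77), 0.24 for CD8a (SE 0.27, -0.38 to 0.86), 0.35 for CD4 (SE 0.62, -1.06 to 1.76) and -0.18 for FOXP3 (SE 0.41, -1.12 to 0.76), with adjusted p from 0.802 to 0.808. Exact permutation p ran from 0.286 for CD8a to 0.714 for FOXP3. The groups overlapped for each member, and did not for 12.0% of the 25 targets. In run 2 the unnormalized differences of the members were between -1.73 and -2.65, next to a difference of -2.55 in the negative controls, with the regions of high background of IgG mouse 37 on 1 side. Without normalization all 4 members were lower in 3D6 mice, by 0.61 to 1.14, and with the housekeepers they were 0.16, 0.29, 0.40 and -0.13 for CD3e, CD8a, CD4 and FOXP3.

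**Figure D3:**
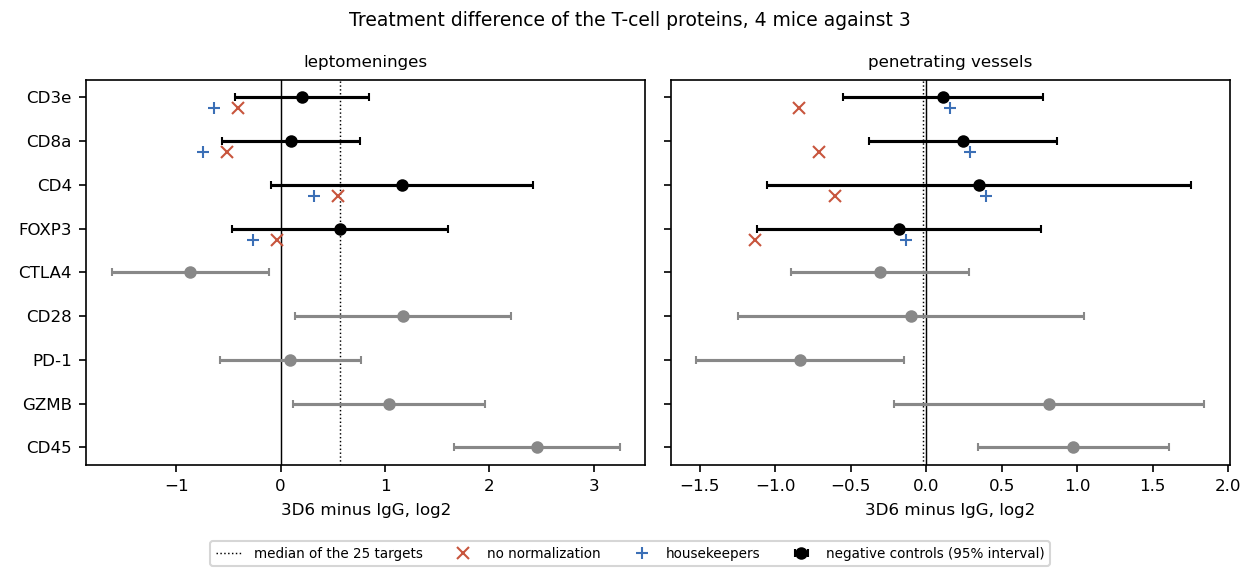
Difference between 3D6 and IgG mice on the log2 scale (x axis) for the 4 T-cell lineage proteins (black), other T-cell proteins and CD45 (grey) in the leptomeninges and on penetrating vessels. Circles are limma estimates over the negative controls with 95% intervals, crosses and plus signs are the same estimates without normalization and over the housekeepers, and the dotted line is the median of the 25 targets. Intervals of all 4 lineage proteins include 0, and in the leptomeninges CD3e and CD8a lie to the left of the dotted line.

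The other T-cell proteins of the panel were read as a list beside the lineage proteins. These are CTLA4, an inhibitory receptor of activated and regulatory T cells, CD28, the co-stimulatory receptor, PD-1, the inhibitory receptor that binds PD-L1, and GZMB, the cytotoxic granule protease granzyme B. None of the 4 passed the test for treatment at either site, against 5 of 25 and 0 of 25 of all targets, although 3 in the leptomeninges and 1 on penetrating vessels had an unadjusted p under 0.05. In the leptomeninges CTLA4 was -0.86 (SE 0.34), CD28 1.17 (SE 0.47) and GZMB 1.04 (SE 0.41), each with limma adjusted p = 0.092, and PD-1 was 0.10 (SE 0.30, adjusted p = 0.791). On penetrating vessels CTLA4 was -0.31, CD28 -0.10, PD-1 -0.83 (SE 0.30, adjusted p = 0.290) and GZMB 0.81 (SE 0.45, adjusted p = 0.754). The median difference was 0.39 for the lineage proteins and 0.57 both for the other T-cell proteins and for all 25 targets in the leptomeninges. GZMB stood far above the negative controls, with a leptomeningeal mean of 4.05 in IgG and 5.09 in 3D6 mice, whereas CD28 lay below them at -2.01 and -0.84, in the range of CD4 and FOXP3.

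The ratios of CD3e and FOXP3 to the negative controls were lower at leptomeningeal than at penetrating vessels within the animals, a difference that was lost over the housekeepers, and FOXP3 lay below the negative controls at both sites. In the test of the site difference within mice (limma, both groups weighted equally), CD3e was -0.47 (SE 0.15, 95% interval -0.82 to -0.12, adjusted p = 0.027), or 0.72 times the penetrating level, and FOXP3 was -0.61 (SE 0.18, -1.01 to -0.20, adjusted p = 0.018), or 0.66 times. Of all 25 targets 52.0% passed this test, 28.0% lower and 24.0% higher in the leptomeninges, so 2 of 4 is close to the share of the panel, and 56.0% of targets had an unadjusted p under 0.05 against the same 2 of 4. The within-mouse differences of CD3e were -0.25, -0.54 and -0.76 in IgG mice 37, 29 and 49, and -0.12, -0.29, -0.53 and -0.76 in 3D6 mice 83, 81, 72 and 77. CD3e was lower in the leptomeninges of 7 of 7 mice, as 24.0% of targets were of 1 sign in all 7, and the exact sign-flip test over the mice gave its smallest possible two-sided p = 0.0156. For FOXP3 the differences were -0.58, -0.73 and -1.64 in IgG mice 37, 29 and 49, and 0.11, -0.05, -0.41 and -0.57 in 3D6 mice 83, 81, 77 and 72. It was lower in 6 of 7 mice (exact sign-flip p = 0.0469), and the largest difference came from mouse 49.

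These site differences depended on the denominator and on single mice. Over the housekeepers CD3e was 0.05 (adjusted p = 0.847) and FOXP3 -0.08 (adjusted p = 0.789), and neither passed without normalization (-0.43 and -0.56), over Rt IgG2a alone (-0.24 and -0.38) or over Rt IgG2b alone (-0.57 and -0.70). The housekeepers were lower in the leptomeninges by 0.39 (exact sign-flip p = 0.328), while the negative controls differed between the sites by 0.07 (exact sign-flip p = 0.891). The median of the 25 site differences was -0.07 over the negative controls and 0.45 over the housekeepers, and relative to it CD3e stood 0.40 and FOXP3 0.53 below under any denominator. With medians over the regions of a mouse neither passed (CD3e -0.46 and FOXP3 -0.54, each limma adjusted p = 0.051). Without mouse 49 neither passed (CD3e -0.41, adjusted p = 0.098, and FOXP3 -0.44, adjusted p = 0.082), and CD3e was also lost without mouse 29 (-0.47, adjusted p = 0.093), without mouse 77 (-0.41, adjusted p = 0.065) and without the regions of few nuclei (-0.57, adjusted p = 0.057).

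CD8a and CD4 showed no site difference that passed the test. CD8a was 0.13 (SE 0.17, 95% interval -0.25 to 0.51, limma adjusted p = 0.683), higher in the leptomeninges of 4 mice and lower in 3. CD4 was -0.07 (SE 0.27, -0.67 to 0.52, adjusted p = 0.885), with differences of -0.34, -0.53 and -0.57 in the 3 IgG mice and -0.58, -0.55, 0.90 and 1.56 in 3D6 mice 77, 81, 72 and 83. The last 2 of these mice were the only ones with more CD4 in the leptomeninges. Of the other T-cell proteins, CTLA4 was higher in the leptomeninges (1.00, SE 0.16, adjusted p = 0.00054) in 7 of 7 mice, PD-1 was lower (-0.73, SE 0.16, adjusted p = 0.004) in 6 of 7, and CD28 (-0.39, adjusted p = 0.066) and GZMB (-0.06, adjusted p = 0.885) did not pass.

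**Figure D4:**
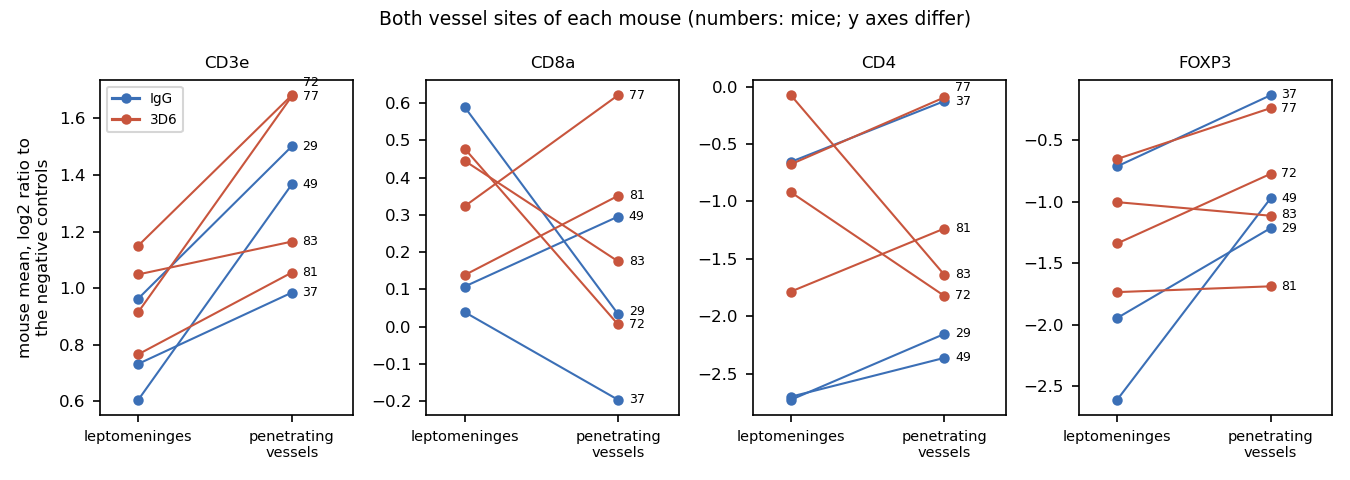
Mouse means of the log2 ratio to the negative controls (y axis, with its own range for each protein) in the leptomeninges and on penetrating vessels, joined by a line for each of the 7 mice. CD3e is lower in the leptomeninges of 7 mice and FOXP3 of 6, whereas the lines of CD8a and CD4 cross, with CD4 higher in the leptomeninges of 3D6 mice 83 and 72 only.

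Whether the treatment difference itself differed between the sites was tested on the within-mouse site differences. None of the 4 members passed in limma, against 7 of 25 targets (28.0%), and none had an unadjusted p under 0.05, as 36.0% of targets did. The difference of the 2 treatment effects, leptomeninges minus penetrating vessels, was 0.09 for CD3e (SE 0.31, adjusted p = 0.777), -0.14 for CD8a (SE 0.34, adjusted p = 0.776), 0.81 for CD4 (SE 0.53, adjusted p = 0.265) and 0.75 for FOXP3 (SE 0.36, adjusted p = 0.163). For FOXP3 the site differences of the groups did not overlap, averaging -0.98 ± 0.57 (SD, n = 3) in IgG and -0.23 ± 0.31 (n = 4) in 3D6 mice (exact permutation p = 0.057), and 40.0% of the 25 targets did not overlap either. Of the other T-cell proteins CD28 passed, at 1.27 (SE 0.32, adjusted p = 0.018), and PD-1 was 0.93 (SE 0.32, adjusted p = 0.052). With the run as a block, and without IgG mouse 29, 0 of the 25 targets passed, so the call on CD28 was lost in both. The median of the 25 targets was 0.63.

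Ratios between the 4 proteins, in which the negative controls cancel, were compared between the groups, 12 in all (6 per site). Adjusted p in the exact permutation test ran from 0.771 to 0.886, but the smallest unadjusted p that the 35 splits allow is 0.0286, so a single ratio whose groups were fully apart could not have passed after adjustment over the 12. The values are therefore given as a description. In the leptomeninges log2 CD4 over CD3e averaged -2.79 ± 1.23 (SD) in IgG and -1.83 ± 0.61 in 3D6 mice (difference 0.96, exact p = 0.257), and log2 CD8a over CD3e averaged -0.52 ± 0.16 and -0.62 ± 0.04 (difference -0.10, exact p = 0.257). Log2 FOXP3 over CD4 averaged 0.27 ± 0.45 and -0.32 ± 0.46 (difference -0.59, exact p = 0.229). Both proteins lay below the negative controls in every mouse mean, so this ratio is not read as one of regulatory to helper cells. On penetrating vessels the differences ran from -0.53 for FOXP3 over CD4 (exact p = 0.371) to 0.24 for CD4 over CD3e (exact p = 0.800). The ratio of CD8a to CD3e had the narrowest spread of the 6 in the leptomeninges, from -0.69 to -0.37 over all 7 mice, and lay between -1.68 and -0.70 on penetrating vessels.

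Whether the 4 proteins varied together from vessel to vessel was described by Pearson's r over the regions of a site, each value being taken relative to its mouse's mean. Regions share a mouse, a section, a run and a denominator, so r is given without a p. In the leptomeninges (82 regions) the only pair of the 6 with an r above 0.2 was CD3e with CD8a, at 0.38 (rho 0.36), positive in 7 of 7 mice and between 0.09 in mouse 37 and 0.75 in mouse 49. The other pairs lay between -0.05 for CD3e with FOXP3 and 0.15 for CD3e with CD4, and were positive in 3 or 4 of 7 mice. On penetrating vessels (84 regions) the pairs lay between -0.07 for CD8a with FOXP3 and 0.22 for CD3e with CD8a, the latter positive in 5 of 7 mice. The median of the 6 pairs was 0.10 and 0.16 at the 2 sites, beside 0.20 and 0.15 for all 300 pairs of the 25 targets. The counts of CD4 and FOXP3 limit what r can show, since counting error alone would give much of the spread between their regions. In the leptomeninges the SD was 0.87 against 0.69 from counting for CD4 and 0.74 against 0.67 for FOXP3, with the counting error of the negative controls left out. On penetrating vessels it was 0.89 against 0.78 and 0.79 against 0.62.

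Without normalization the same 6 pairs had r of 0.43 to 0.77 in the leptomeninges and 0.77 to 0.86 on penetrating vessels, where background and signal vary together over regions. Given the negative controls, the partial r of CD3e with CD8a was 0.41 and 0.17. CD3e with CD4 and CD3e with FOXP3 had partial r of 0.17 and -0.08 in the leptomeninges and 0.19 and 0.25 on penetrating vessels. Between the groups, exact permutation of the Fisher's z of the mice gave adjusted p from 0.686 to 0.971, in a design where a single pair could not have passed after adjustment. The smallest unadjusted value was that of CD3e with CD8a on penetrating vessels, with a mean z of 0.58 in the 3 IgG mice and 0.02 in the 4 3D6 mice (exact p = 0.057).

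The highest r of each lineage protein, at both sites, was with a target outside the set, where there were many more targets (21) to choose from. For CD8a in the leptomeninges the lead was narrow, 0.39 with F4/80 against 0.38 with CD3e. By rho it was reversed, 0.30 against 0.36. In the leptomeninges CD3e had its highest r of the 21 other targets with the macrophage protein F4/80 (0.50, positive in 7 of 7 mice), BatF3, a transcription factor of dendritic cells (0.43, 7 of 7 mice), and CD14, the monocyte co-receptor for lipopolysaccharide (0.41, 6 of 7 mice), and its lowest with smooth muscle actin, SMA (-0.07). CD4 had its highest with the integrin chain CD11b (0.43), F4/80 (0.40) and CD45 (0.40), each positive in 7 of 7 mice, and its lowest with CTLA4 (-0.08). CD8a had its highest with F4/80 (0.39), CD45 (0.37) and the proliferation marker Ki-67 (0.34, 7 of 7 mice), and its lowest with the endothelial protein CD31 (-0.16). FOXP3 was highest with the neutrophil and monocyte marker Ly6G/Ly6C (0.32), MHC II (0.28) and BatF3 (0.21), and lowest with PD-1 (-0.09).

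On penetrating vessels CD14 was again among the 3 highest partners of CD3e, and Ly6G/Ly6C among those of FOXP3. CD3e had its highest r with GZMB (0.57, positive in 7 of 7 mice), CD14 (0.56) and the checkpoint ligand PD-L1 (0.51), and its lowest with SMA (-0.11). CD8a was highest with PD-L1 (0.53) and CD31 (0.41), both positive in 7 of 7 mice, and with the vessel protein CD34 (0.39). CD4 was highest with CD28 (0.41, positive in 5 of 7 mice), the scavenger receptor CD163 (0.32) and the dendritic-cell integrin CD11c (0.27), and lowest with GZMB (-0.14). FOXP3 was highest with CD28 (0.32), PD-1 (0.30) and Ly6G/Ly6C (0.30), and had the lowest r of any member with any target, -0.41 with SMA, negative in 5 of 7 mice. CD4, FOXP3, CD28 and PD-1 each averaged below the negative controls over the 7 mice at this site, so these partners share low counts as well as regions. Their r also differed widely between mice, from -0.15 to 0.95 for CD4 with CD28 and from -0.38 to 0.96 for FOXP3 with PD-1. In IgG mouse 37, with high background in 5 of 12 penetrating regions, CD4 with FOXP3 had r of 0.91, against at most 0.35 in any other mouse. The part of those regions in these values was not tested. The difference in r between the sites was not tested.

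**Figure D5:**
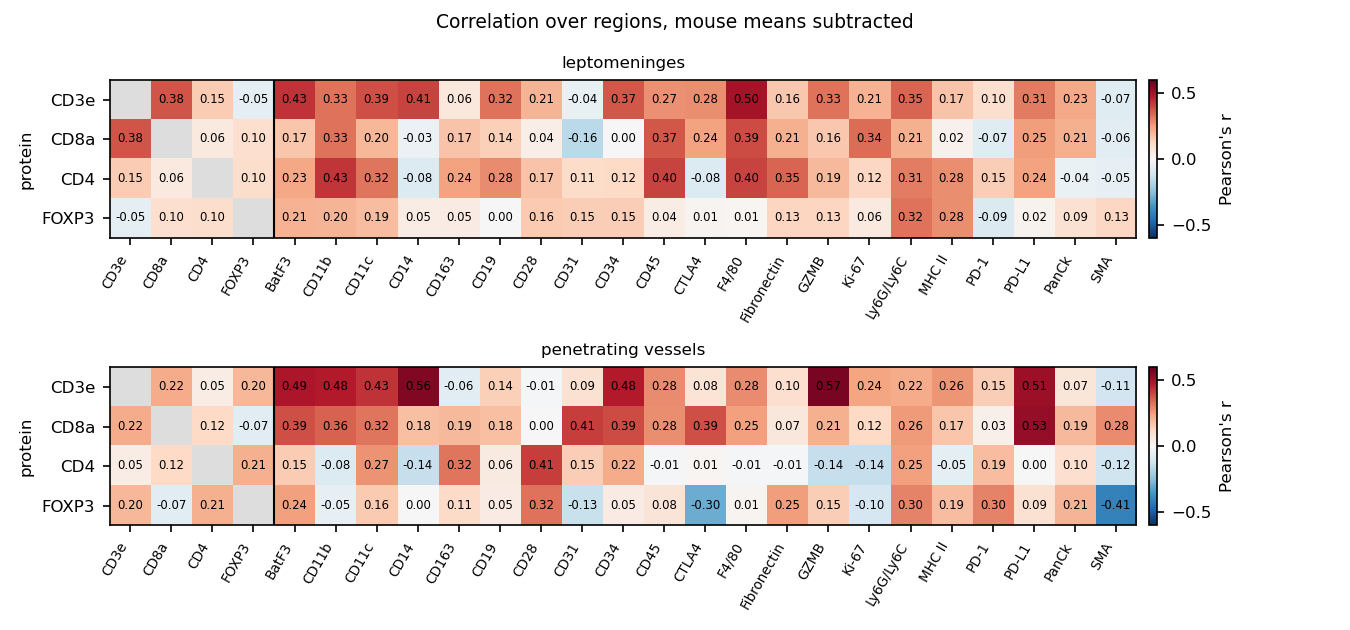
Pearson's r over regions, with mouse means subtracted, between each T-cell lineage protein (rows) and the other members and 21 other targets (columns, set apart by the black line), in the leptomeninges (82 regions) and on penetrating vessels (84 regions). Colour and the printed value give r, and grey marks a protein with itself. The highest cells are CD3e with F4/80 in the leptomeninges (0.50) and CD3e with GZMB on penetrating vessels (0.57), and the lowest is FOXP3 with SMA on penetrating vessels (-0.41).

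The number of nuclei in a region had little relation to the T-cell proteins. With mouse means subtracted, r of the log2 ratio with the nuclei lay between -0.12 (FOXP3) and 0.18 (CD8a) in the leptomeninges and between -0.11 (CD3e) and 0.16 (CD8a) on penetrating vessels. The level of the negative controls moved with some of the ratios. CD3e had r of -0.24 and -0.34 with it at the 2 sites, and CD4 had 0.35 with it on penetrating vessels. The negative controls are the denominator of the ratio, so error in them lowers r, and the r of CD3e is given as a description only. In the 5 penetrating regions of IgG mouse 37 with high background the CD4 ratio was 0.66 to 1.42. In the other penetrating regions of that mouse it was -1.64 to -0.37. The part of those 5 regions in the r of CD4 was not tested. The part of background in the ratios of CD3e and CD4 was not tested further than by the partial r above.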

How the data were processed

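Protein counts were read on the GeoMx platform in circular regions of brain sections from 7 mice. The counts deposited by the authors without normalization had been multiplied by a positive-control factor per region, so they are fractional and were not treated as raw counts. The authors also deposited that factor, a ratio of the hybridization controls of a region to their average, and the nuclei and quality warnings. Their tables already scaled to the negative controls were not used.

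The log2 ratio of each count to the negative controls of its region (geometric mean of the 3) was computed without a pseudocount, and regions were averaged per mouse and site. Differences were fitted for all 25 targets with limma 3.58.1 (R 4.3.3, statmod 1.5.0) on mouse means, with Benjamini-Hochberg adjustment over the 25 and a threshold of 0.05, and single values were tested by exact permutation of the mice or of signs, two-sided (Python 3.11.15, numpy 2.4.6, scipy 1.17.1, pandas 2.3.3, with plots by matplotlib 3.10.9). The mouse was the unit in the reported fits and exact tests, and their p-values measure the spread between mice. The alternative with all regions entered and the mouse as a random block takes regions as observations. The code was tested on simulated data. Groups came from the source label and sites from the region number.

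The other proteins named are 4 T-cell proteins, CD45 and, for each member and site, the 3 targets with the highest and the 1 with the lowest r. The members and lists were chosen with earlier results of these data known. Alternatives changed the denominator, the average per mouse, the pseudocount (1), the filter on low values, the moderation of variances, the regions used, the run as a block, and each mouse left out in turn. Depth was 2571 to 254884 counts per region, and the SD from counting covers the counting error of the protein's own count only. The 2 regions of IgG mouse 37 without values were not analysed here.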

Additional observations from a re-analysis of the deposited data

How the results depend on the processing

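CD4 in the leptomeninges was not called for treatment in the reported fit (1.16) but was with all regions and the mouse as a random block (1.18), over Rb IgG alone (1.49), without regions of few nuclei (1.53) and without IgG mouse 37 (1.85). The random-block fit takes regions as observations. The direction of several differences changed with the denominator. The cause was not tested. Without normalization the leptomeningeal treatment difference was -0.41 for CD3e, -0.51 for CD8a and -0.037 for FOXP3, and on penetrating vessels it was -0.84 for CD3e, -0.61 for CD4 and -0.71 for CD8a. Over the housekeepers the leptomeningeal values were -0.64 for CD3e, -0.74 for CD8a and -0.27 for FOXP3. Over Rt IgG2a alone they were -0.18 for CD3e and -0.28 for CD8a, and -0.11 for CD3e on penetrating vessels, and over Rb IgG alone FOXP3 there was 0.045. The site difference turned to 0.052 for CD3e and 0.45 for CD4 over the housekeepers, to 0.15 for CD4 over Rt IgG2a, to 0.056 and 0.040 for CD4 without regions of few nuclei and without regions of high background, and to -0.0010 for CD8a over Rb IgG. Treatment by site turned to -0.79 for CD3e, -0.071 for CD4 and -0.13 for FOXP3 over the housekeepers, to -0.069 for CD3e over Rt IgG2a, and for CD8a to 0.20 without normalization and 0.093 without regions of few nuclei.

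Of 25 targets, the 5 called for treatment in the leptomeninges became 12 with all regions and the mouse as a block, 11 over Rb IgG alone and 3 without moderation of the variances, and on penetrating vessels 0 became 1 with the mouse as a block. The 13 called between sites became 6 without normalization and 8 over the housekeepers. The 7 called for treatment by site became 0 with the run as a block, 1 without normalization, 1 over the housekeepers, 2 over Rt IgG2b, 3 with medians over regions and 3 without regions of few nuclei.

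With each mouse left out in turn the calls ranged from 3 to 8 for treatment in the leptomeninges, were 0 on penetrating vessels, and ranged from 9 to 15 between sites and from 0 to 6 for treatment by site. The estimates that changed sign ranged from -0.0024 to 0.27 for CD8a in the leptomeninges, and on penetrating vessels from -0.039 to 0.22 for CD3e, -0.058 to 1.06 for CD4 and -0.42 to 0.14 for FOXP3. The site difference of CD4 ranged from -0.28 to 0.079, and treatment by site from -0.030 to 0.22 for CD3e and from -0.34 to 0.034 for CD8a. Among log2 ratios on penetrating vessels, the treatment difference ranged from -0.21 to 1.10 for CD4 over CD3e, -0.0012 to 0.32 for CD8a over CD3e, -0.62 to 0.18 for FOXP3 over CD3e, -0.94 to 0.43 for CD8a over CD4 and -0.65 to 0.016 for FOXP3 over CD8a.

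The share of regions above 2 times the background depended on the control and on the threshold. For CD3e it was 16.3% over Rt IgG2a, 98.2% over Rt IgG2b and 29.5% over Rb IgG, and 98.2% and 18.1% at thresholds of 1 and 3 times. For CD4 it was 19.3% over Rt IgG2b, 0.602% over Rb IgG, 13.3% at 1 time and 0.602% at 3 times. For CD8a it was 1.20%, 64.5% and 4.82% over Rt IgG2a, Rt IgG2b and Rb IgG, 66.9% at 1 time and 0.602% at 3 times. For FOXP3 it was 0% over Rt IgG2a and over Rb IgG, 19.3% over Rt IgG2b, 11.4% at 1 time, and 0% both at 3 times and without regions of few nuclei. The median r within the set rose to 0.50 without normalization and 0.44 over the housekeepers in the leptomeninges, and to 0.85 and 0.48 on penetrating vessels, and the median r to other targets to 0.50 and 0.41, and to 0.82 and 0.45.

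The filter at 2 times the negative controls left at most CD3e of the members, so it gave no value for the others. No paired analysis was possible because the groups share no mouse numbers, and the run as a block was fitted instead. Counts under 10 in 75.3% and 75.9% of regions limit how finely CD4 and FOXP3 can be read in single regions.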

Other observations

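Single regions held several T-cell proteins at once. In leptomeningeal region 7 of 3D6 mouse 83 the log2 ratios were 1.94 for CD4, the highest of all 166 regions, 1.83 for CD3e and 1.53 for CD8a, with -0.30 for FOXP3 and 6.16 for CD45, and the region held 40 nuclei. In leptomeningeal region 1 of 3D6 mouse 77 CD8a was 2.44, the highest of all regions, with CD3e at 1.79, CD4 at -0.95 and CD45 at 4.51. The highest CD3e, 2.64, was in region 23 of 3D6 mouse 72, on a penetrating vessel, with CD4 at -0.14 and CD8a at 0.07. The 3 highest FOXP3 ratios, 1.50, 0.64 and 0.61, came from penetrating vessels of 3D6 mouse 77, and penetrating region 13 of IgG mouse 37 also had 0.61. In the regions of mouse 77 with 1.50 and 0.61 the negative controls were 37.2 and 76.1, against a site median of 12.3. These regions were chosen after their values were seen, each is a single region of 1 mouse, and they carry no test.

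A value of 1.08 recurred at the bottom of the counts once the positive-control factor was divided out. It occurred in 26 values of 6 probes in 5 mice, of which 7 belonged to CD4 and 7 to FOXP3. The thickness of the sections is given as 5 μm in the labels and as 10 μm in the methods of the study.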
